A study of Mus musculus with 6 samples.

Results

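The genes described here encode 10 amino acid transporters of the plasma membrane, *Slc3a2*, *Slc7a5*, *Slc7a6*, *Slc7a11*, *Slc7a1*, *Slc1a5*, *Slc1a4*, *Slc38a1*, *Slc38a2* and *Slc6a9*. They were chosen by name, and each had a row of its own among the 23698 rows of the gene tables. The study asked how alternative 5'UTRs relate to the translation of mRNAs in mouse skin and in squamous cell carcinoma. The cells, called SCCc, are labelled as keratinocytes from back skin at postnatal day 0 that carry Hras G12V together with a Tgfbr2 fl/fl knockout (KO), were grown to between passages 10 and 15, and go back to an earlier tumour allograft model, as 1 line. For this line 1 library of ribosome profiling and 2 of RNA-seq were used, with no wild-type library, so all values compare genes within SCCc. The labels do not say whether the RNA-seq replicates came from separate cultures, so the spread between them may be technical.

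Ribosome profiling sequences the mRNA fragments, or footprints, that ribosomes shield from nuclease. The ribosome profiling library held 3549555 counts on exons, of which 8338 (0.235%) fell on the 10 transporter genes. RNA-seq replicate 1 held 10707930 counts, with 30877 (0.288%) on these genes, and replicate 2 held 14003713, with 39295 (0.281%). Of the modified genes, *Hras* had 128 footprints on its coding sequence (CDS) and *Tgfbr2* 193, but gene counts show neither a point mutation nor a missing exon.

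Cells import most amino acids through transporters of the solute carrier (SLC) families, several of which exchange one amino acid for another. The glycoprotein encoded by *Slc3a2* (CD98, or 4F2 heavy chain) binds a light chain of the SLC7 family and brings it to the cell surface, and the light chain carries the substrate. Leucine and glutamine that enter in this way feed the nutrient-sensing mTORC1 pathway, and imported cystine is used to make glutathione. Many of these genes are induced by the transcription factor ATF4 when amino acids are scarce.

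The libraries carried the markers of basal keratinocytes. All 6 keratinocyte markers were above 1 RPKM (counts scaled to the counted length and to the sum of exon counts of the library) in both RNA-seq replicates, with *Krt5* the most abundant at 7965 and 9483 RPKM and 4640 RPKM of footprints. Their summed level was 14347 and 16466 RPKM in RNA-seq replicates 1 and 2 and 8667 RPKM in footprints. The 6 fibroblast markers summed to 9.93 and 15.5 RPKM in RNA-seq, led by *Col3a1*, and 5 of the 6 had 0 footprints. The 4 leukocyte markers summed to 37.9 and 46.1 RPKM, most of it from *Cd68* (35.1 and 37.3 RPKM), which also had 36.9 footprints, while *Cd3e* had no count and *Ptprc* had 5 and 14 RNA-seq counts with 0 footprints. The 4 melanocyte markers summed to 5.38 and 5.47 RPKM, led by *Pmel*, and the 3 endothelial markers to 0.505 and 0.591 RPKM, led by *Kdr*. Of 5 markers of differentiated keratinocytes 4 had a row, summing to 117.9 and 120.0 RPKM with *Ivl* the most abundant and *Lor* at 0 footprints. How far other cells contribute to the transporter values was not tested.

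Translational efficiency (TE) was taken as footprint RPKM on the CDS over mean RNA-seq RPKM on exons, on the log2 scale, with 0 at the median of the 9863 genes that passed the filters (RPKM above 1 in both RNA-seq replicates, a counted CDS, footprints there and a base mean, the mean count after scaling for library size, above 25). Of the 10 transporter genes, 9 passed, and *Slc38a1* did not. TE was above 1, more than 2-fold over the median gene, for 4 of the 9 (*Slc7a11*, *Slc7a5*, *Slc7a1* and *Slc7a6*), beside 20.8% of all genes. It was below -1 for 0 of the 9, beside 21.1% of all genes, although *Slc6a9* came close. The median over the 9 genes was 0.54, and it was 0.51 and 0.60 against RNA-seq replicates 1 and 2 alone. With 1 ribosome profiling library in these data the footprints have no replicate and no difference was tested. A ± given after a TE is the SD over RNA-seq replicates and leaves out the counting error of footprints. Errors given for footprint levels and shares are exact Poisson or Clopper-Pearson 95% intervals, and counting errors of TE are standard errors. They cover counting error only and treat copies made by PCR as independent molecules, which they are not.

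**Figure D1:**
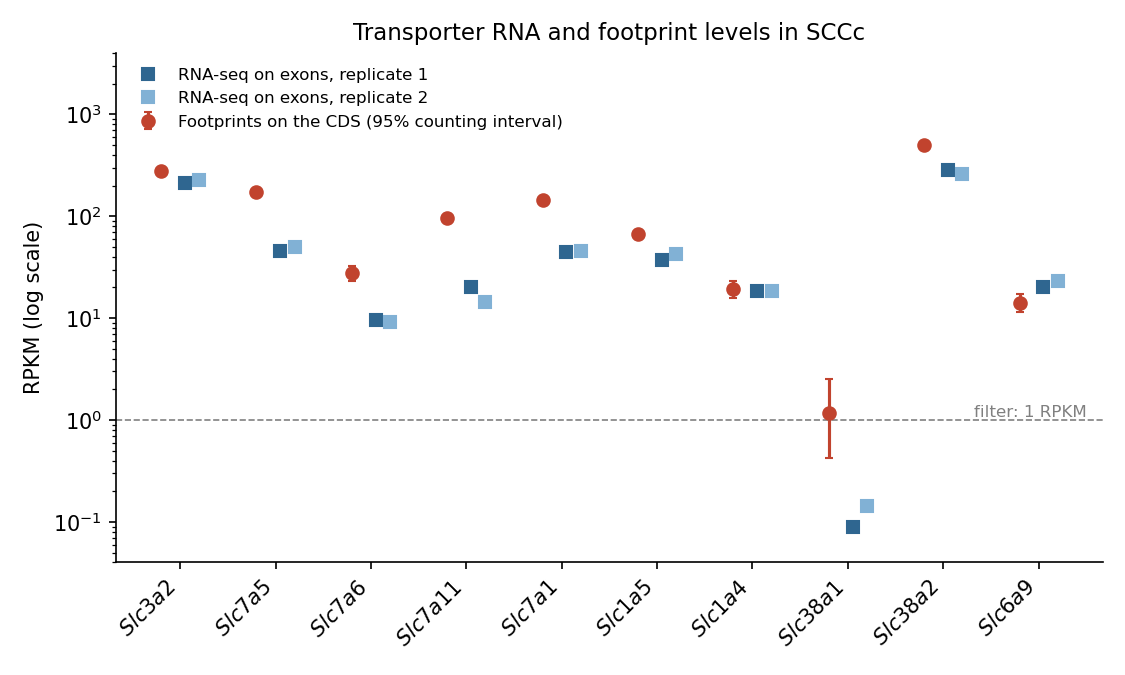
RPKM of each transporter gene on a log axis, with footprints on the CDS as circles (bars, 95% counting interval) and RNA-seq on exons as squares for replicates 1 and 2. *Slc38a2* and *Slc3a2* lie highest in both kinds of library, and *Slc38a1* is the one gene below the 1 RPKM limit in RNA-seq.

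By RNA-seq level the genes fell into tiers. *Slc38a2* had 269 ± 17.0 RPKM (SD, n = 2) and *Slc3a2* 222 ± 10.4 RPKM, at percentiles 98.1 and 97.5 of the passing genes. *Slc7a5* (48.0 ± 2.98 RPKM), *Slc7a1* (45.2 ± 0.677 RPKM) and *Slc1a5* (40.0 ± 3.95 RPKM) followed, and the first pair differed by less than the SD of *Slc7a5*. *Slc6a9* (21.6 ± 1.99 RPKM), *Slc1a4* (18.5 ± 0.0408 RPKM) and *Slc7a11* (17.4 ± 4.22 RPKM) formed the next tier, where the replicates of *Slc7a11* spanned the value of *Slc1a4*. *Slc7a6* had 9.30 ± 0.336 RPKM and *Slc38a1* 0.117 RPKM. The median passing gene had 15.3 RPKM. Counted over the CDS instead of exons, *Slc3a2* (353 RPKM) stood above *Slc38a2* (283 RPKM), so the order of the leading genes depends on the region.

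*Slc3a2*, the shared heavy chain, had 214 and 229 RPKM in RNA-seq replicates 1 and 2 and 278 RPKM of footprints on the CDS (interval 265 to 292). Its TE of -0.01 ± 0.08 (SD over RNA-seq replicates) placed it at percentile 49.6 of all genes, so a very abundant mRNA was occupied about as densely as the typical mRNA. RNA-seq on this gene was uneven along its length. Its counted 3'UTR of 844 nt was far sparser than its CDS, at log2 ratios of -4.27 in replicate 1 and -4.38 in replicate 2. GENCODE M21 lists 3 of its transcripts with a complete CDS, with 3'UTRs of 106, 841 and 136 nt. With RNA-seq counted over the CDS the TE of *Slc3a2* was -0.39.

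*Slc7a5* encodes LAT1, the light chain that exchanges large neutral amino acids such as leucine. It had 45.8 and 50.1 RPKM in RNA-seq replicates 1 and 2 and 174 RPKM of footprints (163 to 185, from 948 footprints). Both replicates put its TE far above the median, at 1.59 and 1.44, and the combined value of 1.52 ± 0.10 lay at percentile 88.4. *Slc7a6* encodes y+LAT2, a light chain that exchanges cationic for neutral amino acids. It had lower RNA, 9.54 and 9.06 RPKM, and 27.5 RPKM of footprints (23.3 to 32.3). Its TE was 1.22 ± 0.04, where the counting error of 0.13 was larger than the spread between RNA-seq replicates.

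*Slc7a11* encodes xCT, the light chain that takes up cystine in exchange for glutamate. It had 20.4 RPKM in RNA-seq replicate 1, 14.4 RPKM in replicate 2 and 95.1 RPKM of footprints (87.0 to 104). Among the 9 passing transporter genes the RNA-seq replicates differed most on this one, with a log2 ratio of replicate 2 to replicate 1 of -0.50, at percentile 0.852 of all passing genes, while the other 8 lay between -0.13 and 0.20. The TE was 1.88 against replicate 1 and 2.37 against replicate 2, and the combined 2.11 ± 0.34, at percentile 94.1, was the highest among the transporter genes. Even the lower of these values exceeded the TE of the other 8 passing genes. With RNA-seq counted over the CDS, where the same length divides both counts, it was 2.71 and still the highest of the 9. Without division by length, with RNA-seq still counted on exons, it was 0.50, below *Slc7a5* (1.33), *Slc7a6* (0.96) and *Slc1a5* (0.68). Its place at the top thus depends on whether its exon counts are divided by length. Its counted exons, at 9227 nt, are the longest of the 9.

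The promoter of *Slc7a11* (250 bases before to 50 after the start, RefSeq, GRCm38.p6) is shown because it held the sequence TGATGNAA, the core of elements bound by ATF4 with a C/EBP partner, on each strand, while 3.97% of all 32851 promoters of the same length held it on either strand. Capitals mark the match, and the gene lies on the minus strand of chromosome 3. The first site is at chr3:50443662-50443689, with its match beginning 66 bases upstream of the start, and the second, which reads in reverse, at chr3:50443643-50443670, with its match beginning 47 bases upstream. *Slc1a4*, on the minus strand of chromosome 11, had a reverse match in the stretch chr11:20332700-20332727 that begins 4 bases upstream of the start and runs across it.
Slc7a11 first site: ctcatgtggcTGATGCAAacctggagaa
Slc7a11 second site: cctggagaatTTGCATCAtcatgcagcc
Slc1a4 site: gcctcctgcgTTGCATCAtctccagcct

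Of the 10 transporter genes 7 had an entry in the promoter table, and 2 of these 7 held a match, beside 4.51% of all 27025 genes with an entry. *Slc7a5*, *Slc1a5* and *Slc38a1* had no entry. A match gives the letters present and does not show binding.

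The heavy chain and its partners were then set side by side per length, a comparison chosen after their values were seen. The partners summed were the 6 light chains *Slc7a5*, *Slc7a6*, *Slc7a7*, *Slc7a8*, *Slc7a10* and *Slc7a11*. In RNA-seq, *Slc3a2* stood at 2.603 times the sum of its light chains in replicate 1 (95% counting interval 2.50 to 2.71) and 2.89 times in replicate 2 (2.793 to 2.9996). In footprints on the CDS the ratio was 0.893 (0.835 to 0.956), with 278 RPKM for the heavy chain and 312 RPKM for the light chains together. The intervals of these ratios are normal approximations on the log scale. The heavy chain was thus in excess in RNA and slightly below the summed light chains in footprints, where the 3 light chains among the 10 genes alone gave a ratio of 0.939. Counting RNA-seq over the CDS widened the gap, with ratios of 4.02 and 4.23. *Slc7a5* made up 55.8% of the light-chain footprints, *Slc7a11* 30.5%, *Slc7a6* 8.84% and *Slc7a8* 4.88%. In RNA-seq the share of *Slc7a11* was lower, 24.8% in replicate 1 and 18.2% in replicate 2. These are reads per length, and protein amounts were not measured.

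**Figure D2:**
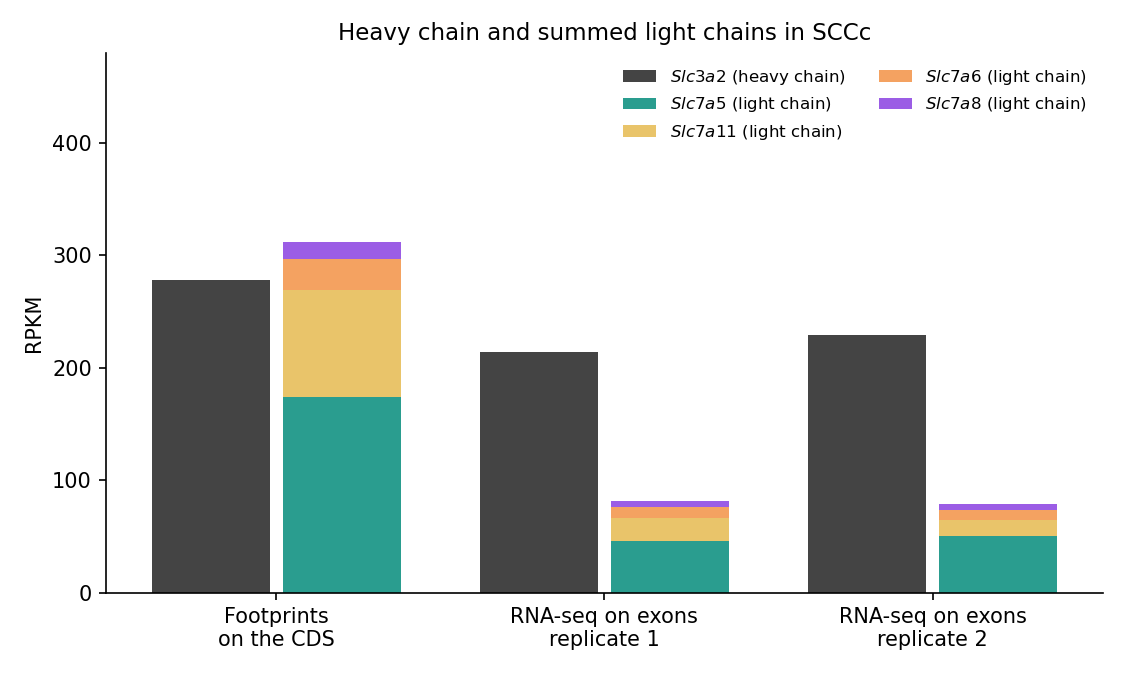
RPKM of the heavy chain *Slc3a2* (dark bars) beside the stacked RPKM of its light chains in footprints on the CDS and in both RNA-seq replicates, with *Slc7a7* and *Slc7a10*, which had 0 footprints, not drawn. The bars are nearly level in footprints, with a ratio of 0.893, while the heavy chain is 2.603 and 2.89 times the light chains in RNA-seq.

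*Slc7a1* encodes CAT1, which carries arginine and lysine without a heavy chain. It had 44.7 and 45.7 RPKM in RNA-seq replicates 1 and 2 and 145 RPKM of footprints (136 to 155). The replicates were close, and its TE was 1.34 ± 0.03, at percentile 85.6. All 4 SLC7 genes among the 10 thus had a TE above 1. This held against either RNA-seq replicate alone and with RNA-seq counted over the CDS. It did not hold for all of them under other settings. With at least 100 counts required in every library, 2 of 8 genes (*Slc7a5* and *Slc7a11*) were above 1, beside 18.8% of all genes, because the median that sets 0 moved and each retained gene fell by the same 0.39. Without division by length, with RNA-seq still counted on exons, 1 of 9 (*Slc7a5*) was above 1, beside 19.2% of all genes. With RNA-seq counted over the CDS, where the same length divides both counts, 4 of 9 were above 1, beside 18.3% of all genes. The excess over all genes was thus absent in the first of these settings and present in the second.

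*Slc1a5* and *Slc1a4* encode ASCT2 and ASCT1, sodium-dependent exchangers of neutral amino acids, the first known for glutamine and the second for serine and alanine. *Slc1a5* had 37.2 and 42.8 RPKM in RNA-seq replicates 1 and 2 and 66.7 RPKM of footprints (60.3 to 73.7), which gave a TE of 0.40 ± 0.15. *Slc1a4* had 18.5 RPKM in each replicate and 19.1 RPKM of footprints (15.7 to 23.1), which gave a TE of -0.29 ± 0.01 with a counting error of 0.14. The pair thus lay within 2-fold of the median gene, on opposite sides of it. With RNA-seq counted over the CDS the TE of *Slc1a4* was 0.09, so its side of the median depends on the region counted.

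*Slc38a1* and *Slc38a2* encode SNAT1 and SNAT2, the system A carriers that move small neutral amino acids with sodium. *Slc38a2* was the most abundant of the 10 genes, with 281 and 257 RPKM in RNA-seq replicates 1 and 2 and 497 RPKM of footprints (478 to 516). It alone supplied 35.5% of all CDS footprints on the transporter genes, and its TE was 0.54 ± 0.08, at percentile 67.7. Without division by length, against RNA-seq counts on exons, it was -0.06, and with RNA-seq counted over the CDS it was 0.76. Its side of the median thus depends on the setting. Its paralog *Slc38a1* had few reads in each library. There were 6 footprints on the CDS (2.20 to 13.1) and 8 and 17 RNA-seq counts on exons, or 0.0890 and 0.145 RPKM. No TE is given for *Slc38a1*, since its ratio would rest on these counts.

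*Slc6a9* encodes GlyT1, a glycine transporter that runs on sodium and chloride. It had 20.2 and 23.0 RPKM in RNA-seq replicates 1 and 2 and 14.1 RPKM of footprints (11.4 to 17.2). Its TE of -0.96 ± 0.14, at percentile 21.8, was the lowest of the transporter genes. It was -0.86 against replicate 1 and -1.07 against replicate 2, so without replicate 1 the count of transporter genes below -1 was 1 and not 0. *Slc6a9* was also the one gene of the 10 whose annotated exons overlap other genes, *Ccdc24*, *B4galt2* and *Gm17114*, all on the opposite strand, over 1555 nt. Whether the counting used the strand is not given in the sources used here, so reads of these genes cannot be told apart from its own. Of its annotated CDS 88.7% was counted, and between 98.3% and 100% in the other 9 genes.

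**Figure D3:**
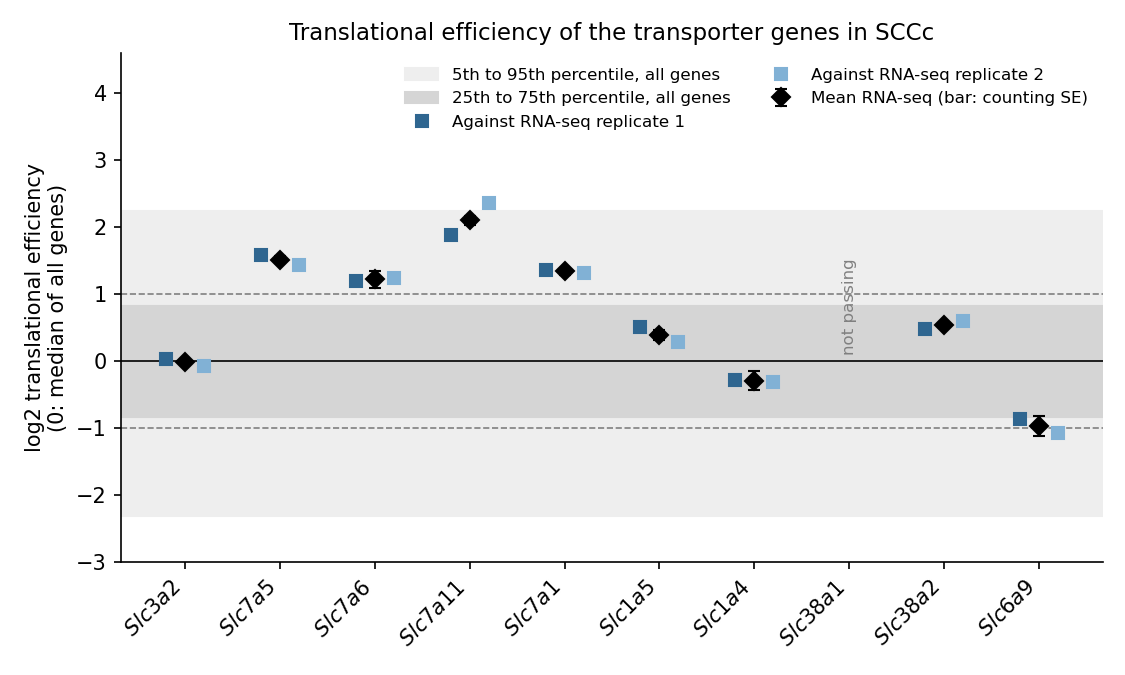
Log2 TE of each transporter gene relative to the median of all 9863 passing genes, against mean RNA-seq (diamonds, bars are the counting standard error) and against each RNA-seq replicate (squares). Grey bands hold the central part of all genes, dashed lines mark 2-fold, and *Slc7a11* at 2.11 and *Slc6a9* at -0.96 are the ends of the range.

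Footprints on the 5'UTR were set against those on the CDS per counted nt. The minimums were 60 nt of 5'UTR, 30 footprints on it, 10 on the CDS and, for the 5'UTR, 10 counts in RNA-seq, and 5 of the 10 genes passed (*Slc3a2*, *Slc7a11*, *Slc7a1*, *Slc1a5* and *Slc38a2*). The density on the 5'UTR was above that on the CDS in 0 of the 5, beside 24.8% of all 1045 genes that passed, whose median log2 ratio was -0.99. *Slc38a2* had the most 5'UTR footprints, 336 on 378 nt, with a log2 ratio of -0.99. This was 11.2% of its footprints on 5'UTR and CDS together (10.1% to 12.4%). *Slc3a2* had the lowest ratio of the 5, -2.42, at percentile 13.9, from 77.6 footprints on 419 nt, a share of 4.46% (3.54% to 5.54%). *Slc7a1* (-0.9997), *Slc1a5* (-1.11) and *Slc7a11* (-1.21) lay near the median of all genes.

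RNA-seq covers 5'UTRs unevenly as well, so the same ratio was taken there. In all 1045 genes the footprint ratio was above the RNA-seq ratio in 59.3%, and in the transporter genes this was so for 1 of the 5, *Slc38a2*. Its RNA-seq log2 ratios were -1.60 and -1.59 in replicates 1 and 2, below the -0.99 of footprints. The other 4 had a footprint ratio below the RNA-seq ratio. In *Slc1a5* RNA-seq was as dense on the 5'UTR as on the CDS, with log2 ratios of 0.07 and 0.11, and the footprint share of 13.4% (10.4% to 16.9%) stood beside 26.2% in RNA-seq. In *Slc7a11* the RNA-seq ratios were -0.66 and -0.04, wider apart than in *Slc3a2* (-1.73 and -1.86) and *Slc7a1* (-0.42 and -0.50).

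The genes that missed the minimums are given as counts. *Slc6a9* had 22.1 footprints on 307 nt of 5'UTR and 94.7 on the CDS, a share of 18.8% (12.2% to 27.1%) beside 6.35% in RNA-seq. With 10 footprints and 30 nt as the minimums it passed, as the one transporter gene with a denser 5'UTR than CDS (log2 ratio 0.53). Whether the overlap of its exons with other genes reaches the 5'UTR was not determined. *Slc7a5* had 14.3 footprints on a 5'UTR of 80 nt, where RNA-seq had 0 counts in replicate 1 and 0.426 in replicate 2, against 802 and 1233 counts on its CDS. RNA-seq was thus nearly absent from the 5'UTR of *Slc7a5* although footprints were counted on it. *Slc1a4* had 8.54 footprints on its 5'UTR, *Slc7a6* had 6.31 and *Slc38a1* had 0.

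**Figure D4:**
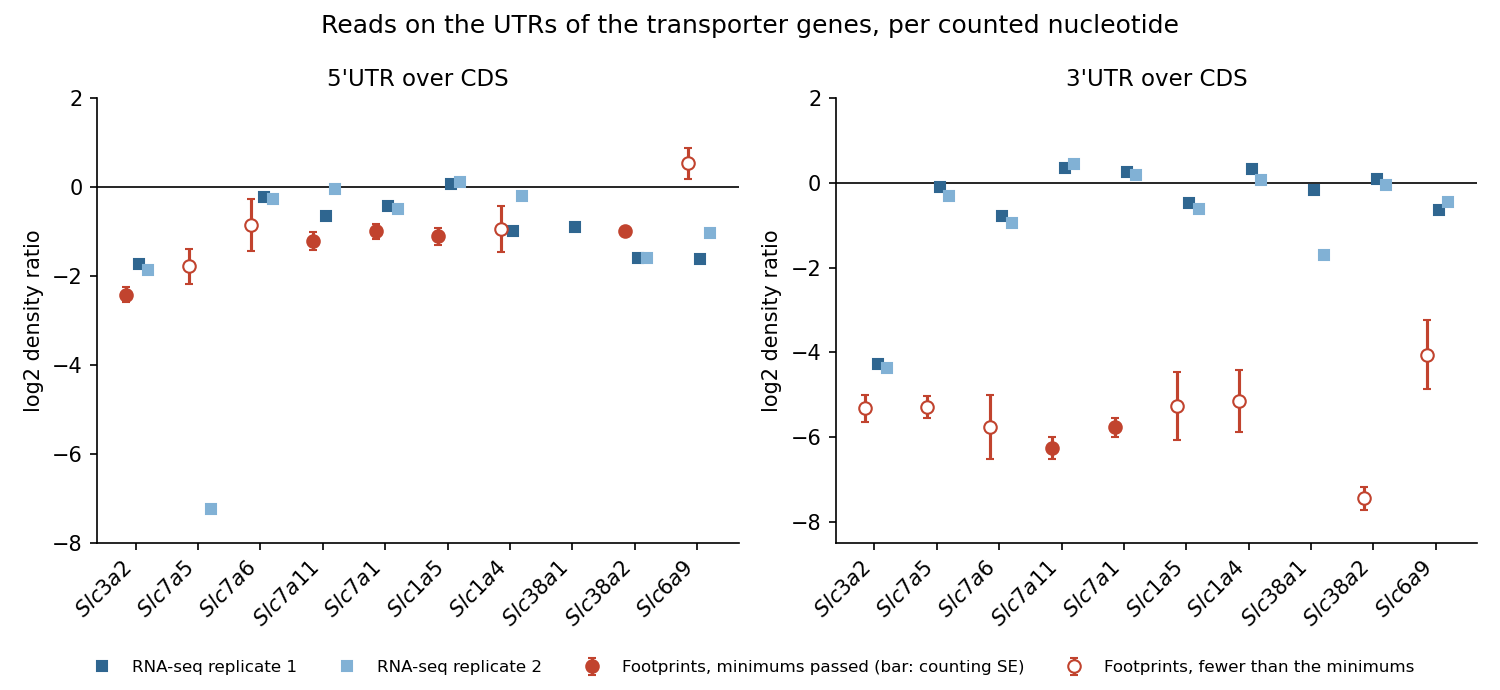
Log2 density per counted nt on the 5'UTR (left) and 3'UTR (right) over the CDS, for footprints (circles, open where the minimums were not met, bars are the counting standard error) and for RNA-seq replicates 1 and 2 (squares); points without counts are not drawn. On the 3'UTR footprints lie at -4.05 or lower in all genes drawn, while RNA-seq lies below -4 in *Slc3a2* and above -2 in the other genes.

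Reading frames that open in a 5'UTR can take up ribosomes, and the annotated 5'UTRs were searched for ATG triplets. For each gene 1 transcript was taken, the one nearest the counted CDS and then the counted 5'UTR in length, and 4 of the 10 held an upstream ATG, beside 57.6% of 39883 annotated 5'UTRs of at least 20 nt. They were *Slc7a1*, *Slc7a11*, *Slc1a5* and *Slc38a1*. The choice of transcript matters, since over all 20 transcripts with a complete CDS 10, from 7 genes, held an upstream ATG. Some of these ATGs are main starts of another transcript of the same gene, in *Slc1a4* and *Slc6a9*. In *Slc1a4* all 3 lie in frame with the main start and run into the CDS. Among the 4 genes above, the 3 well expressed ones each had 1 upstream ATG, and each of these frames closed before the main start. In *Slc7a1* it lies 69 nt from the 5' end of 280 nt and opens a frame of 57 codons, in *Slc7a11* 39 nt from the end of 350 nt with 35 codons, and in *Slc1a5* 242 nt from the end of 561 nt with 13 codons. Their surroundings are shown with those of the main start, each with the ATG in capitals, from GENCODE M21 on GRCm38. The upstream stretches are at chr5:148399827-148399846 (minus strand), chr3:50443564-50443583 (minus strand) and chr7:16781571-16781590 (plus strand), and the main starts at chr5:148352426-148352445, chr3:50443252-50443271 and chr7:16781891-16781910.
Slc7a1 upstream: cgcgcggctgATGaaaccgg
Slc7a1 main start: gctcagcacaATGggctgca
Slc7a11 upstream: ctggtgtgtaATGatagggc
Slc7a11 main start: tgacactgccATGgtcagaa
Slc1a5 upstream: tcccggatctATGccacttg
Slc1a5 main start: acggctcagcATGgcagtgg

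Initiation is known to favour a purine 3 bases before the ATG and a G right after it. The main starts of these genes have both, none of the upstream ATGs has the G, and the one in *Slc7a11* has the purine. Gene counts do not place footprints within the 5'UTR, so none can be assigned to these frames. The 410-nt 5'UTR of *Slc38a2* held 0 ATG triplets, and this gene had the most 5'UTR footprints of the 10.

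The 5' ends were also searched for the motifs the study is about. A TOP motif, a C at position 1 followed by at least 4 pyrimidines, marks mRNAs whose translation responds to mTORC1, and a pyrimidine-rich translational element (PRTE) is a run of 9 pyrimidines with a T at position 6. Of 20 annotated transcripts of the transporter genes with a complete CDS, 0 opened with a TOP motif, beside 2.27% of all 44623 such transcripts. A PRTE was present in the 5'UTR of 5 of the 10 transcripts taken (*Slc38a2*, *Slc38a1*, *Slc7a11*, *Slc1a4* and *Slc1a5*). Of the 39883 annotated 5'UTRs of at least 20 nt, 31.2% held at least 1. *Slc38a2* and *Slc38a1* held 5 each and *Slc7a11* 4. Over all 20 transcripts 8, from 6 genes, held a PRTE. These are annotated ends, and the ends used in SCCc were not analysed here.

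On the 3'UTR footprints were sparse in each gene. With the same minimums 2 genes passed, *Slc7a11* with a log2 density ratio to the CDS of -6.26 and *Slc7a1* with -5.77, and 0 of the 2 were above the CDS, beside 11.4% of all 280 passing genes. In RNA-seq the 3'UTRs of both were as dense as the CDS or denser, with 0.36 and 0.44 in *Slc7a11* and 0.24 and 0.18 in *Slc7a1*. The 3'UTR of *Slc7a11* is counted over 7369 nt and carried 1702 and 1571 RNA-seq counts against 272 and 237 on the CDS, but 32.5 footprints against 508. *Slc38a2* had 27.7 footprints on its 3'UTR and 2667 on its CDS, the lowest ratio, at -7.44, of the 9 genes with footprints on both regions.

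A list of other amino acid transporters held 41 genes of the plasma membrane and lysosome, of which 9 passed the filters. Of the 41, 30 had 0 footprints on the CDS, beside 51.3% of all genes, and 15 had no count on exons in any library, not far from the 30.2% of all genes. The 5 with the highest RNA-seq level were *Slc6a6*, a taurine transporter (26.9 RPKM), *Slc38a10* (10.2 RPKM), *Slc38a7* (9.12 RPKM), *Slc36a1* (7.53 RPKM) and *Slc7a8*, a light chain known as LAT2 (5.51 RPKM), so 5 of the 10 transporter genes had a higher level than any gene on this list. The TE was above 1 for 1 of the 9, beside 20.8% of all genes, and below -1 for 2, near the 21.1% of all genes. The median was -0.47, beside 0.54 for the transporter genes. With the library totals of the deposited RPKM, where 5 genes of the list passed and 0 were below -1, the median was 0.0398, so its side of 0 depends on which genes pass. The highest were *Slc7a8* (1.12 ± 0.19), *Slc6a6* (0.93 ± 0.02) and *Slc16a10* (0.36 ± 0.01, from 12 footprints). Their counting errors were 0.17, 0.07 and 0.43. *Slc7a8*, at 0.99 without replicate 2 and 0.79 without division by length, was then no longer above 1, and *Slc16a10* stood at -0.18 with RNA-seq over the CDS. The lowest were *Slc43a2* (-2.91 ± 0.11), *Slc36a4* (-1.56 ± 0.01) and *Slc38a7* (-0.73 ± 0.08), the first resting on 2.96 and the second on 6 footprints. For these the counting errors, 0.84, 0.60 and 0.25, were larger than the spread between RNA-seq replicates. Without division by length *Slc36a4* was at -0.91.

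The heavy chain *Slc3a1*, the counterpart of *Slc3a2* in cystine and dibasic amino acid transport, is named after its values were seen. It had 1.72 and 1.80 RPKM in RNA-seq and 0 footprints on the CDS, so *Slc3a2* was the one heavy chain with footprints in these libraries.

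Amino acid response genes linked to ATF4, which include enzymes of serine and proline synthesis, were given by a list of 18, of which 17 passed and *Cbs* did not. Their median TE was 0.66, with 7 of 17 above 1 and 1 below -1, beside 20.8% and 21.1% of all genes. The highest were *Psph* (1.89 ± 0.02), *Pycr1* (1.78 ± 0.06) and *Phgdh* (1.68 ± 0.12), which act in serine and proline synthesis. *Pycr1* had a counting error of 0.18. With RNA-seq counted over the CDS *Pycr1* was at 0.71, and 6 of the genes were above 1. The lowest were *Ddit3* (-3.12 ± 0.07, from 9 footprints), *Atf4* itself (-0.66 ± 0.05) and *Sesn2* (-0.65 ± 0.13), with counting errors of 0.48, 0.06 and 0.14. With at least 100 counts required in every library, 4 of 14 genes were above 1, beside 18.8% of all genes. Below -1 were then *Atf4* and *Sesn2*, each at -1.05, beside 15.7% of all genes. Of the 16 with a promoter entry, 5 held TGATGNAA, beside 4.51% of all genes with an entry. Of the other transporters 1 of 31 held it, and of the glutathione and glutamine genes described next 1 of 7.

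Genes of glutathione and glutamine metabolism, which use the cystine and glutamine that *Slc7a11* and *Slc1a5* bring in, all passed as a list of 10. Their median TE was 0.81, with 4 of 10 above 1 and 3 below -1, beside 20.8% and 21.1% of all genes. Among the highest were *Gpx4* (2.48 ± 0.15) and *Got1* (1.15 ± 0.01). *Gclm* (-1.32 ± 0.12) and *Gclc* (-1.28 ± 0.09), the subunits of the enzyme that joins cysteine to glutamate, and *Glul* (-1.10 ± 0.15), glutamine synthetase, were lowest. *Glul* rested on 23.1 footprints, with a counting error of 0.30. Against replicate 1 alone *Glul* stood at -0.996 and was no longer below -1. The cystine transporter *Slc7a11* and the *Gclc* and *Gclm* genes thus lay on opposite sides of the 2-fold limits, though not without division by length, where *Slc7a11* was within them. RNA-seq of *Gclc* was 179.9 and 162 RPKM in replicates 1 and 2 beside 89.5 RPKM of footprints. Per length, the footprints of *Slc7a11* and *Gclc* did not differ beyond counting error, while *Gclc* had more RNA.

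**Figure D5:**
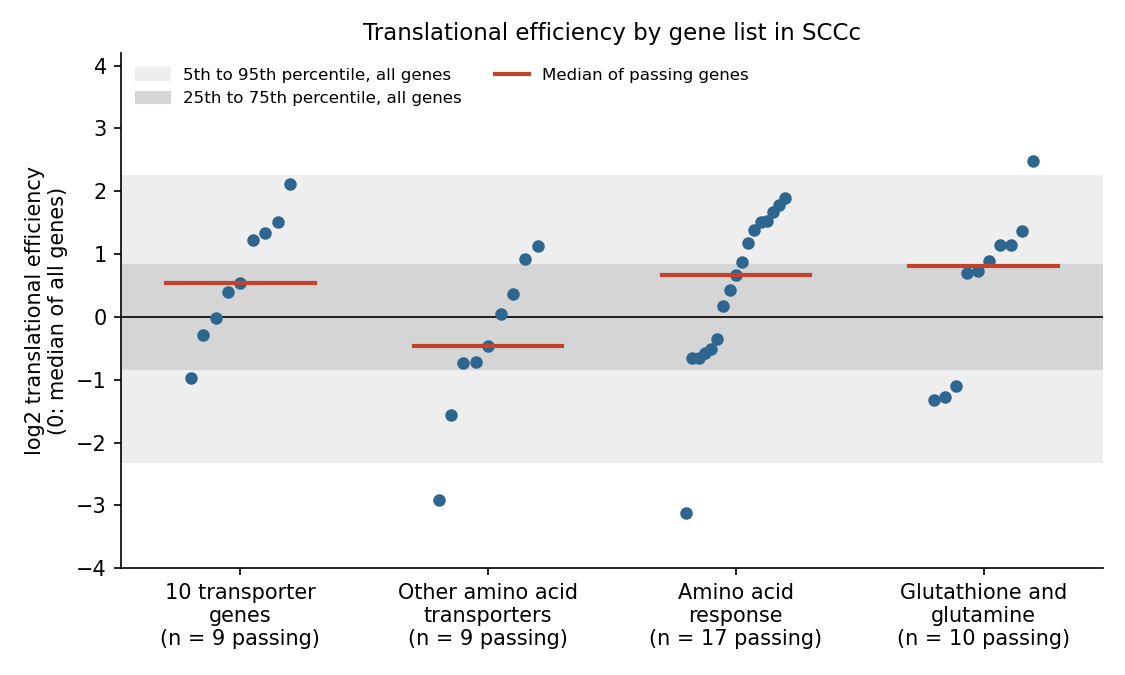
Log2 TE of the passing genes of each list (points, ordered by value) with the list's median (red line) and the central part of all 9863 genes (grey bands). The medians are 0.54 for the transporter genes, -0.47 for other amino acid transporters, 0.66 for amino acid response genes and 0.81 for glutathione and glutamine genes.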

How the data were processed

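By the submitters' notes, reads were trimmed with Trim Galore and aligned to GRCm38 with STAR 2.6.1, after Bowtie2 2.4.1 had taken ribosomal, mitochondrial and tRNA matches out of the ribosome profiling reads. Plastid then gave counts for each gene on exons, CDS and both UTRs. The strand setting and the annotation release are not given in the sources used here. The deposited values are estimated counts per gene and region, with 1 library per table. The RPKM deposited by the authors divides by larger library totals and was used only as an alternative. Exon counts were 1.75% of that total in ribosome profiling and 21.1% and 21.3% in RNA-seq replicates 1 and 2. RPKM was computed here with each library's exon counts as its total, in Python 3.11.15 with numpy 2.4.6 and pandas 2.3.3. Base means used DESeq2 1.42.0 size factors on CDS footprints and exon RNA-seq counts rounded to whole numbers. Intervals came from scipy 1.17.1. TMM factors came from edgeR 4.0.16. The calculation was tested on simulated data. Transcripts came from GENCODE M21 and promoters from RefSeq. The interaction test of the study needs both conditions and was not run.

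The members and lists were chosen with earlier results of these data known. Named genes are all 10 members, of the other transporters the 5 with the highest RNA-seq level and the 3 highest and 3 lowest TE, and of each further list genes among the 3 highest and 3 lowest TE. Also named are *Slc7a7* and *Slc7a10* as summed light chains, the heavy chain *Slc3a1*, and *Cbs* as the response gene that did not pass. The alternatives tried were leaving out either RNA-seq replicate, adding 1 RPKM, other filters, region, length and library sizes. Long-read samples were not analysed here.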

Additional observations from a re-analysis of the deposited data

How the results depend on the processing

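No paired analysis was possible because the ribosome profiling library has no replicate in this series and the values come from no test. Since TE is centred on the median gene, TMM and DESeq2 library sizes bear on levels and not on TE. Their log2 shifts of the median RNA-seq level over all genes were -0.14 and -0.16, and the median RNA-seq level of the 9 genes, 40.0 RPKM, was 35.8 with DESeq2 and 30.8 RPKM over all 10 genes. Their median TE was 0.85 with no filter beyond 1 count, which adds *Slc38a1* with its few reads, 0.76 with RNA-seq over the CDS and 0.41 without division by length. Above 1 were 5 genes with no filter (22.0% of all genes), 2 with at least 100 counts (18.8% of all genes) and 1 without division by length (19.2%), and below -1 was 1 without RNA-seq replicate 1 (21.3%) and 0 without replicate 2 (20.9%). The 5'UTR minimum of 100 footprints left 1 gene, and the 5'UTR ratio was above 0 in 1 with 10 footprints (*Slc6a9*; 24.1% of all genes) and in 1 after division by the RNA-seq ratio (*Slc38a2*; 59.3%). The heavy to light chain ratio in RNA-seq, 2.75 from the mean, was 4.13 over the CDS and 2.97 for the 3 light-chain members, and that in footprints, 0.893, was then 0.939, settings chosen after seeing the data.

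The median of the other transporters, -0.47, was -0.47 and -0.36 without replicates 1 and 2, -0.43 with the pseudocount, -0.16 with 100 counts (2 genes, 0 above 1, 0 below -1), -0.0795 with no filter (2 above 1), -0.46 over the CDS (2 above 1), -0.71 without length (0 above 1, 1 below -1) and 0.0398 with the totals of the deposited RPKM (5 genes, 0 below -1). Above 1 were 1 and 0 genes without replicates 1 and 2. The median of the response genes was 0.38 with 100 counts (4 above 1, 2 below -1), 0.51 with no filter, 0.71 over the CDS and 1.11 without length. That of the glutathione and glutamine genes was 0.82 and 0.86 without replicates 1 and 2, 0.50 with 100 counts (1 above 1), 0.93 over the CDS and 0.97 without length. With 100 counts the median that sets 0 moved, so each retained gene fell by 0.39, beside the genes lost. The cause of the other shifts was not tested. Depth limits *Slc38a1*, *Slc43a2* and *Slc36a4*, each with 6 or fewer footprints.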
